A study of Mus musculus with 20 samples.

Results

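The 10 genes described here are products by which neutrophils are commonly recognised: the S100 calcium binders *S100a8* and *S100a9*, the granule genes *Ltf*, *Camp*, *Ngp* and *Lcn2*, the resistin-like gene *Retnlg*, the receptors *Csf3r* and *Cxcr2*, and *Ly6g*. They were taken by symbol from a table of 59311 genes, each symbol matched 1 gene, and all 10 passed the filter on low values used for the tests. RNA was sequenced from Ly6Chi and Ly6Clo monocyte-derived macrophages (MoMac) of the livers of 10 mice (C57BL/6 in the labels, C57BL/6 J in the study's methods), both subsets from each liver, which gave 20 libraries in 4 groups of 5. Every mouse had liver fibrosis from 4 weeks of CCl4, so that no uninjured liver serves as a reference. Mice 16 to 20 received Ac-6-FP, a ligand that holds MAIT cells (mucosal-associated invariant T cells) inactive, before the final CCl4 injection and daily afterwards, and mice 11 to 15 received its vehicle, DMSO in PBS. The cells were sorted as CD11b and F4/80 positive and as Ly6G, CD11c and CD3 negative, with the level of Ly6C dividing the subsets. Neutrophils carry Ly6G on their surface, and the gate was thus set to leave them out.

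Neutrophils make their granules in waves while they mature in the bone marrow. Azurophil granules with myeloperoxidase and elastase come first, and specific granules with lactoferrin and the cathelicidin precursor follow. S100A8 and S100A9 form a heterodimer, calprotectin, that fills the cytoplasm of neutrophils and is also present in classical monocytes, while CXCR2 and the G-CSF receptor govern the release and the supply of neutrophils. In the injured liver, neutrophils are recruited together with Ly6Chi monocytes, which later turn into Ly6Clo macrophages.

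*Ltf*, *Camp* and *Ngp* lie on chromosome 9 of mm10, the build of the values, within 1195392 bases of each other. *Camp* runs from 109847375 to 109849456, *Ngp* from 110419808 to 110423010 and *Ltf* from 111019290 to 111042766. *S100a8* (chromosome 3, 90669070 to 90670034) and *S100a9* (90692631 to 90695721) are 22597 bases apart on opposite strands, and *Retnlg* is on chromosome 16 (48872608 to 48874498). The other members are *Lcn2* on chromosome 2 (32384637 to 32387771), *Csf3r* on chromosome 4 (126024659 to 126044975), *Cxcr2* on chromosome 1 (74153988 to 74161246) and *Ly6g* on chromosome 15 (75155261 to 75159128). The promoters of these 6 genes are printed because the values below fall into these same sets: 3 granule genes that were high in the same 6 Ly6Clo libraries, the S100 pair, and *Retnlg* with its much higher level in 1 subset. Each covers 250 bases before and 50 bases after the gene start, 5′ to 3′, from RefSeq on GRCm38.p6, the same build as mm10. Capitals mark TTGCNNAA (a C/EBP-type motif) and GGAAGT (a PU.1-type motif), searched on both strands.
Ltf (chr9:111019042-111019341, plus strand): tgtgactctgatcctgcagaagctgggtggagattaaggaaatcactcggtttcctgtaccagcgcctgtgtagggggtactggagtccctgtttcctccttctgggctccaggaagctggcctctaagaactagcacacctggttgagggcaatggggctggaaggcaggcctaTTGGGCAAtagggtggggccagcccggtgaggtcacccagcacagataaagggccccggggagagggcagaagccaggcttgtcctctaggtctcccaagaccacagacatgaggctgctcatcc
Camp (chr9:109849407-109849706, minus strand): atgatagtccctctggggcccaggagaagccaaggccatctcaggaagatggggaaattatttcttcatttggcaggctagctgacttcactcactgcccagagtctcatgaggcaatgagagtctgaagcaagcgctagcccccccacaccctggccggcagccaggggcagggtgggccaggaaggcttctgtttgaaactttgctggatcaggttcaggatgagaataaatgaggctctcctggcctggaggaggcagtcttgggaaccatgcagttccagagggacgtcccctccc
Ngp (chr9:110419558-110419857, plus strand): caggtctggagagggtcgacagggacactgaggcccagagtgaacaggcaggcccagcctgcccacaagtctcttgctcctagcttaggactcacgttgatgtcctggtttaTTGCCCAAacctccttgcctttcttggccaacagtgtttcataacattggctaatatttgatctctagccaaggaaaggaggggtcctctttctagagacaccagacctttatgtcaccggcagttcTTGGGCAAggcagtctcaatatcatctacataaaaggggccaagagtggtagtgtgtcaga
S100a8 (chr3:90668821-90669120, plus strand): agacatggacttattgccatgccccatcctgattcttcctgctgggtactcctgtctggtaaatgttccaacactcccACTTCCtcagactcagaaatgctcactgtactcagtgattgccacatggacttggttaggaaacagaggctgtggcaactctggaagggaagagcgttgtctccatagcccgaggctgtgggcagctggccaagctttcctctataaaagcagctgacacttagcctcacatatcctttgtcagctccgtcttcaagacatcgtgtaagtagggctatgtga
S100a9 (chr3:90695672-90695971, minus strand): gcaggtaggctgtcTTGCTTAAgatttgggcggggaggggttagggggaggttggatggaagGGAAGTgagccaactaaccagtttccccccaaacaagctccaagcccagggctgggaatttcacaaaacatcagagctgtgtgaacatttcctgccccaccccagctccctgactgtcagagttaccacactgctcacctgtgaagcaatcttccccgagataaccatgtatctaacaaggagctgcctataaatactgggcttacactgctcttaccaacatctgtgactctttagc
Retnlg (chr16:48872358-48872657, plus strand): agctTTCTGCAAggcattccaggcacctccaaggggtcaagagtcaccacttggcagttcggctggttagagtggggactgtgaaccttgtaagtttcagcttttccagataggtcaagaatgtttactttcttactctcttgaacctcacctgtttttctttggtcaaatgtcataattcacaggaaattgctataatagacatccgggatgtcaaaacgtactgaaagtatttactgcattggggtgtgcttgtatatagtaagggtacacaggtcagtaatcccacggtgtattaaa
The C/EBP-type letters were found in 6 of the 10 members' promoters, *S100a9*, *Ltf*, *Ngp*, *Lcn2*, *Retnlg* and *Ly6g*, against 10.8% of 32851 promoters in the table. The PU.1-type letters were found in 4, *S100a8*, *S100a9*, *Cxcr2* and *Ly6g*, against 23.8%. *Camp* and *Csf3r* held neither in this window. A match describes letters only, and whether a factor was bound there was not measured. No 75-base stretch of *Retnlg* was shared exactly with *Retnla*, *Retn* or *Retnlb*, and none of *S100a8* with *S100a9*. The same held for *Ly6g* against *Ly6c1*, *Ly6c2*, *Ly6i* and *Ly6a*, and for *Cxcr2* against *Cxcr1*. A read of this length thus could not match both of such genes exactly, while matches with mismatches were not searched. The table also holds an entry with no symbol over *S100a8* and another over *Retnlg*. In libraries with at least 100 normalized counts these entries carried 90.1% to 104% and 94.8% to 115% of the member's value, and they were not counted as members.

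Values are normalized counts, that is, reads per gene divided by 1 size factor per library and not by gene length, so that levels are compared between libraries and not between genes. Reads counted per library ranged from 5693049 to 18682437. Where a gene is at 0, as many as 3 reads are allowed for by counting error, the one kind of error this limit describes. The Ly6Clo vehicle library of mouse 13 stood apart: it had the fewest reads, and of 6652 genes whose median reached 100, it listed 2765 at 0, against 21 to 870 in the other libraries. The Ly6Chi monocyte markers *Ly6c2*, *Ccr2*, *Vcan*, *Plac8*, *F13a1*, *Fn1*, *Cd14*, *Hp* and *Chil3* were higher in Ly6Chi MoMac. From the Ly6Clo list 5 of 10 were higher in Ly6Clo MoMac by limma (*Ace*, *Treml4*, *Cd9*, *C1qa* and *Mrc1*), while edgeR called 3. Markers of other cells were also found in Ly6Clo libraries. The summed level of the NK and T cell list was 39540.4 to 86329.8 there against 0 to 812 in Ly6Chi MoMac, with 4 of 6 tested genes higher in Ly6Clo (*Ncr1*, *Klrb1c*, *Nkg7* and *Gzma*). That of the basophil and mast cell list was 2387 to 41801 against 0 to 138, with 6 of 6 higher by limma (*Mcpt8*, *Cpa3*, *Fcer1a*, *Ms4a2*, *Gata2* and *Prss34*) and 5 called by edgeR. The eosinophil list summed to 0 to 20113 against 0 to 32.7, with 4 of 5 higher by limma (*Siglecf*, *Prg2*, *Ccr3* and *Il5ra*) and 3 called by edgeR. The dendritic cell list summed to 4702 to 19404 against 83.8 to 535, with 2 of 6 higher (*Flt3* and *Cd209a*). Most of that sum was *Cd209a*, which alone was 4369 to 19143 in Ly6Clo MoMac. *Xcr1*, *Clec9a*, *Siglech* and *Zbtb46* did not pass. In the Kupffer, B cell, hepatocyte and endothelial lists 1 gene each was higher in Ly6Clo MoMac (*Marco*, *Cd79a*, *Apoa1* and *Clec4g*), where edgeR called 0 of the endothelial list. In the stellate and erythroid lists 0 of 2 and 0 of 3 passed by limma (1 and 0 at an unadjusted p under 0.05, edgeR 0). The erythroid list still summed to 169.2 to 55447 in Ly6Clo and 218.6 to 11093 in Ly6Chi MoMac. Its gene *Hba-a1* was highest in Ly6Clo MoMac of mouse 16 (33966). *Epx* of the eosinophil list was at 0 in all 20 libraries. *Cd3e* was at 0 in all Ly6Chi libraries and was not among the genes tested. The T cell genes *Cd3d* and *Cd3g* were tested and did not pass. *Cd3d* was 0 to 139.7 in Ly6Chi and 0 to 119.5 in Ly6Clo MoMac (limma adjusted p = 0.577). *Cd3g* was 0 to 38.7 and 0 to 226 (0.36). *Itgax*, which encodes the CD11c that the sort excluded, was at 0 in all Ly6Chi libraries and reached 3302 in Ly6Clo. The part of these other cells in the results below was not tested.

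The members did not move as 1 group between the subsets. *Retnlg*, *Cxcr2*, *Ngp* and *Camp* were higher in Ly6Clo MoMac by limma on within-mouse differences (Benjamini-Hochberg adjusted p under 0.05), the other 6 did not pass the test, and no member was higher in Ly6Chi MoMac past the threshold. The 4 of 10 compare with 5.19% of the 17248 genes tested that passed in either direction, with 3.44% passing as higher in Ly6Clo and 1.76% as higher in Ly6Chi MoMac. The median log2 difference, Ly6Chi minus Ly6Clo, was -3.49 over the 10 members, a value that depends on the pseudocount where a subset is at 0, and -0.03 over all genes tested. Without mouse 13, 5 members passed, *Ltf* being the addition, against 6.69% of the genes tested. In RNA of sorted cells in bulk, fewer cells of a type and less RNA per cell cannot be told apart.

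**Figure D1:**
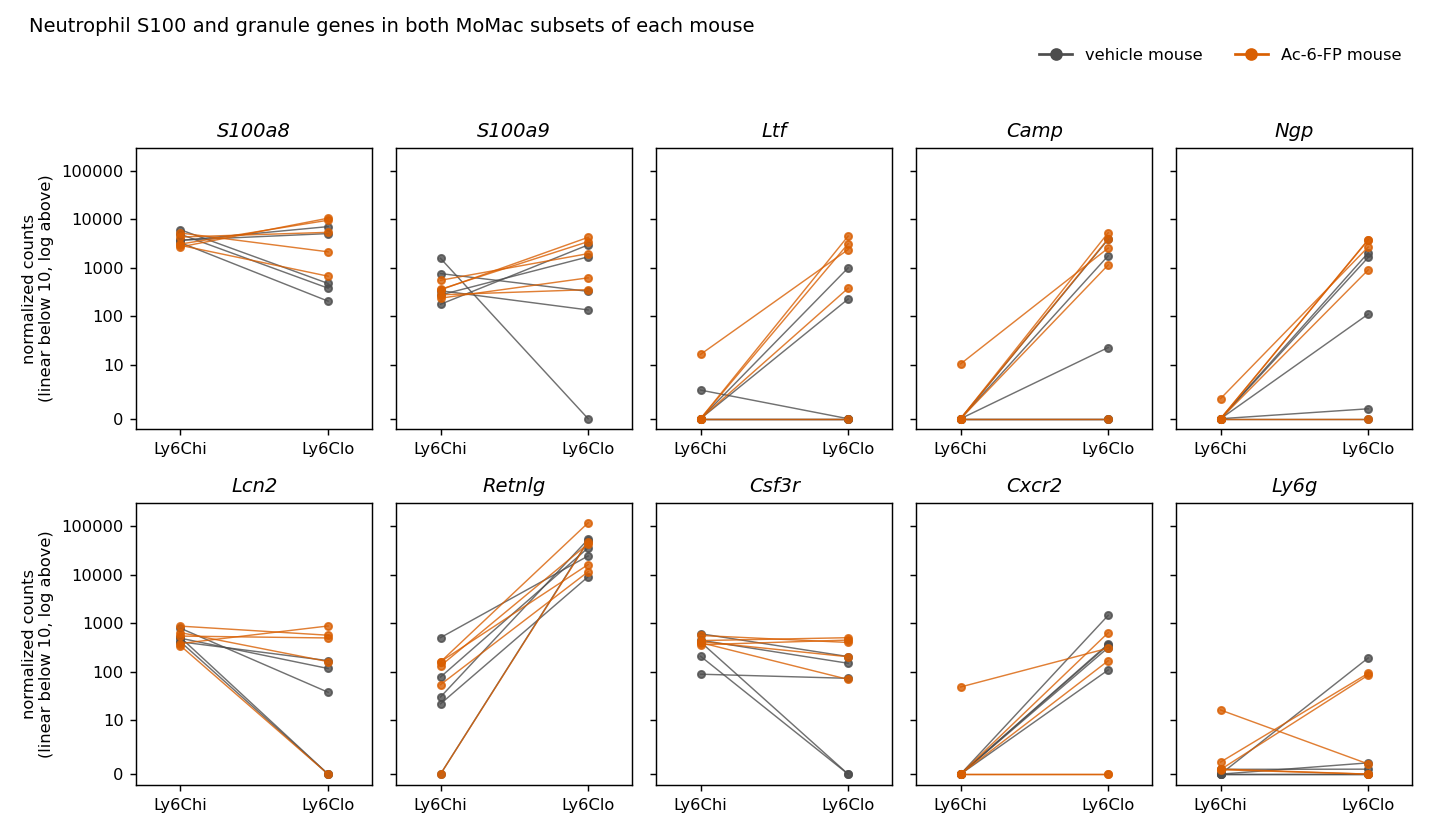
Normalized counts of the 10 members in Ly6Chi and Ly6Clo MoMac; each line joins the 2 libraries of 1 mouse (grey, vehicle; orange, Ac-6-FP), and the vertical axis is linear below 10 and logarithmic above. *Retnlg* lies between 9064 and 117062 in Ly6Clo and between 0 and 504 in Ly6Chi MoMac, whereas *S100a8* lines cross in both directions.

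*S100a8*, the partner of *S100a9* in calprotectin, was abundant and even in Ly6Chi MoMac and uneven in Ly6Clo MoMac. In Ly6Chi MoMac it was 3292, 3710.1, 4903, 3653 and 6071 normalized counts in vehicle mice 11 to 15, and 2898, 5207, 2694, 3084 and 4309 in Ac-6-FP mice 16 to 20. In Ly6Clo MoMac it was 205, 5067, 379.8, 7053 and 475 in vehicle mice, and 671, 2132, 10519, 9548 and 5374 in Ac-6-FP mice. The Ly6Chi values kept between 2694 and 6071, while Ly6Clo MoMac of mice 11, 13, 15 and 16 were low and those of mice 14, 18 and 19 above every Ly6Chi library. Both subsets therefore overlapped, with Ly6Chi higher in 5 mice and Ly6Clo in 5. The log2 difference was 0.94 (SE 0.63, limma adjusted p = 0.472).

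*S100a9* followed the same mice. In Ly6Chi MoMac it was 336, 275, 1565, 177 and 759 in vehicle mice, and 277, 237, 350.2, 360.1 and 552 in Ac-6-FP mice. Ly6Clo MoMac had 135, 1679, 0, 2957 and 326 in vehicle mice, and 354, 620.3, 4234, 3462 and 1956 in Ac-6-FP mice. Ly6Clo MoMac of mice 12, 14, 18, 19 and 20 exceeded all Ly6Chi libraries, those of mice 11 and 13 lay below all of them, and those of mice 15, 16 and 17 lay within their range. The log2 difference was -0.39 (SE 1.18, adjusted p = 0.885), and it moved to -1.62 (adjusted p = 0.138) without mouse 13, whose Ly6Clo library was at 0. It turned to 0.26 with genes detected as a covariate, to 0.013 without mouse 14 and to 1.295 in vehicle mice alone, and none of these passed.

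The proportion of the pair is given as a description, since this ratio was chosen after the values were seen. Set against *S100a8* in the same library, *S100a9* was 4.54% to 31.9% in Ly6Chi MoMac (median 10.95%) and 0% to 68.6% in Ly6Clo MoMac (median 38.3%). It was lower in Ly6Chi than in Ly6Clo MoMac in 9 of 10 mice, the exception being mouse 13. Over 10 mice the log2 ratio differed by -1.34 ± 2.95 (SD; exact sign-flip permutation test, two-sided, p = 0.191), so that no difference in proportion was shown. Without mouse 13, the 1 mouse of the opposite direction, it was -2.26 ± 0.56 (SD, n = 9), for which no test is given. Of the other S100 genes 15 of 16 were in the table and 7 were tested, of which 3 were higher in Ly6Chi MoMac: *S100a4* by 0.98, *S100a6* by 0.81 and *S100a10* by 0.75 on the log2 scale (adjusted p = 0.00277, 2.9e-05 and 0.00983). The other 4 did not pass the test.

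*Camp*, the precursor of the antimicrobial peptide CRAMP, was at 0 in nearly all of Ly6Chi MoMac and present at high level in some Ly6Clo libraries. In Ly6Chi MoMac it was 0 in 9 libraries and 10.4 in that of mouse 20. The Ly6Clo values were 0, 1768, 0, 3851 and 22.7 in vehicle mice, and 0, 1143, 5257, 3973 and 2543 in Ac-6-FP mice. The Ly6Clo libraries thus fell apart into 6 at 1143 or more and 4 at or below 22.7, of which those of mice 11, 13 and 16 lay within the Ly6Chi range. Between subsets *Camp* differed by -6.95 in log2 (SE 1.52, adjusted p = 0.0167), and Ly6Clo was higher in 7 of 10 mice with the other 3 tied at 0.

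*Ngp*, which encodes neutrophilic granule protein, showed the same division. It was 0 in 9 Ly6Chi libraries and 3.73 in that of mouse 20. In the Ly6Clo subset it was 1.84, 2033, 0, 1632 and 110.6 in vehicle mice, and 0, 903, 3804, 3731 and 2676 in Ac-6-FP mice. High values stood in mice 12, 14, 17, 18, 19 and 20, as for *Camp*, and those of mice 11, 13 and 16 were within the Ly6Chi range. Its log2 difference was -7.27 (SE 1.41, adjusted p = 0.00801), with Ly6Clo higher in 8 of 10 mice.

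*Ltf*, the gene of the iron-binding protein lactoferrin, was 5.31 and 16.4 in Ly6Chi MoMac of mice 11 and 20 and 0 in the other 8. In Ly6Clo MoMac it was 0, 996, 0, 227 and 0 in vehicle mice, and 0, 379, 3130, 4502 and 2376 in Ac-6-FP mice. The 6 mice above 0 were again 12, 14, 17, 18, 19 and 20, and the 4 Ly6Clo libraries at 0 overlapped with Ly6Chi. At -5.45 in log2 (SE 1.57) the difference did not pass the test (adjusted p = 0.0712). This call depended on the mice and the scale: *Ltf* passed without mouse 11 (adjusted p = 0.0381), without mouse 13 (0.0463), with a pseudocount of 10 (0.0376), with quantile normalization (0.0229) and with no replicate block, that is, without the pairing by mouse (0.0434).

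Because most Ly6Chi libraries were at 0, the sizes of these 3 differences depend on the pseudocount of 1. With 0.1 in its place they were -8.95, -9.57 and -6.81 for *Camp*, *Ngp* and *Ltf*, and with 10 they were -4.93, -5.01 and -3.95. The interval from *Camp* to *Ltf* holds 65 other genes, 20 of which were tested, and 0 of the 20 passed the test between subsets in either direction by limma.

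*Lcn2*, whose product lipocalin 2 binds bacterial siderophores, differed from the other granule genes in its Ly6Chi level. In Ly6Chi MoMac it was 787, 490.3, 509, 413 and 413 in vehicle mice, and 342, 639, 381, 542 and 869.6 in Ac-6-FP mice. Ly6Clo MoMac had 37.7, 116, 0, 169 and 0 in vehicle mice, and 0, 162, 876, 496 and 565 in Ac-6-FP mice. All Ly6Clo vehicle libraries lay below all Ly6Chi libraries, while with Ac-6-FP mice 19 and 20 lay within the Ly6Chi range and mouse 18 just above it. Ly6Chi was higher in 9 of 10 mice, by 3.53 on the log2 scale (SE 1.08), yet the adjusted p of 0.0928 did not pass the threshold. It passed with a pseudocount of 10 (0.0473), with quantile normalization (0.0381) and with detected genes as covariate (0.0455), and not with 1 mouse left out (0.065 to 0.196).

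**Figure D2:**
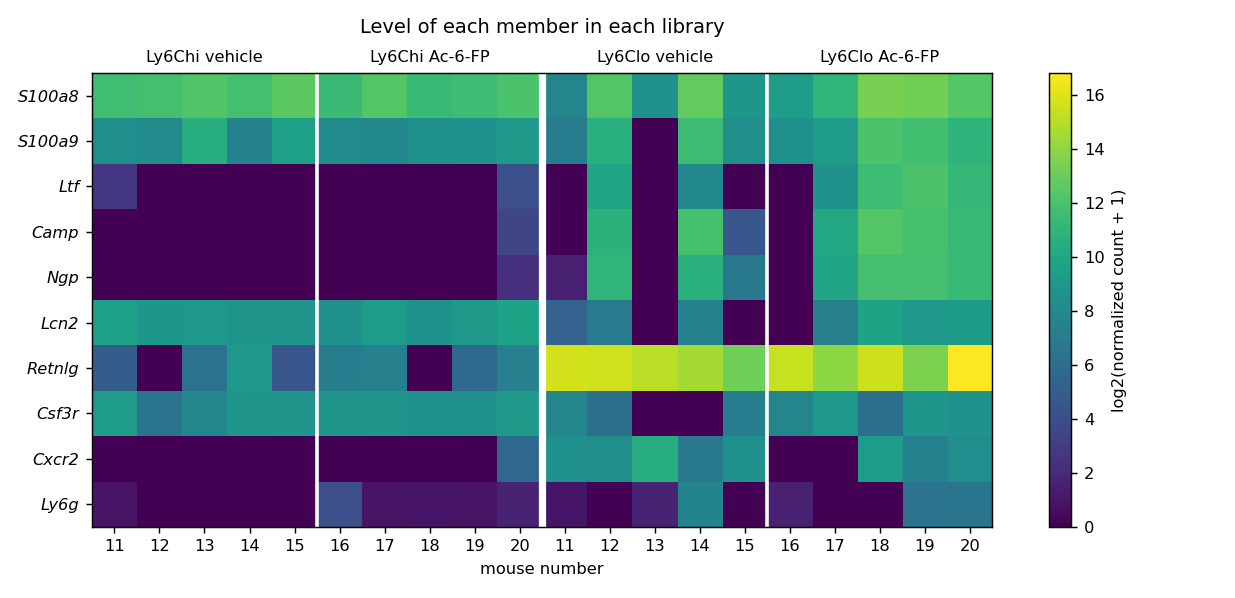
Level of each member in each of the 20 libraries, as log2(normalized count + 1), by group and mouse number. *Ltf*, *Camp* and *Ngp* have their lowest levels in nearly all Ly6Chi libraries and in Ly6Clo MoMac of mice 11, 13 and 16, *Ltf* also in that of mouse 15, and the same mice have low *S100a8*.

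*Retnlg*, which encodes a resistin-like secreted protein of myeloid cells, was the member with the clearest difference between subsets. In Ly6Chi MoMac it was 30.1, 0, 77.7, 504 and 21.8 in vehicle mice, and 132, 160.4, 0, 54.1 and 159 in Ac-6-FP mice. The Ly6Clo values were 53537, 49960, 35768, 24317 and 9064 in vehicle mice, and 43239, 16171, 48275, 11504 and 117062 in Ac-6-FP mice. No Ly6Chi library came near the lowest Ly6Clo library, so that the subsets did not overlap and Ly6Clo was higher in 10 of 10 mice. The log2 difference was -9.72 (SE 0.93, adjusted p = 2.68e-05), and it stayed between -10.2 and -9.06 with 1 mouse left out (largest adjusted p = 0.000148). *Retnlg* alone took 0.0707% to 0.843% of the reads counted in Ly6Clo MoMac.

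High *Retnlg* was found in Ly6Clo libraries with and without the granule genes. Mice 11, 13 and 16 had 35768 or more of *Retnlg* and none or almost none of *Camp*, *Ngp* and *Ltf*, while mice 12, 18 and 20 had 48275 or more of *Retnlg* and high values of all 3. Among its own family *Retnla* was tested and was also higher in Ly6Clo MoMac, by -9.60 on the log2 scale (adjusted p = 1.6e-05), with 12.8 to 9101 normalized counts against 0 to 27.0 in Ly6Chi MoMac. *Retn* was at 0 in all libraries and *Retnlb* in all of Ly6Chi MoMac. Likewise *Ccr3*, the eotaxin receptor of eosinophils, was 0 in the 10 Ly6Chi libraries and in Ly6Clo MoMac 11147, 9962, 0, 3987 and 1130.5 in vehicle mice and 5897, 3251, 5972, 1249.8 and 17223 in Ac-6-FP mice. Mouse 20 was highest in *Retnlg* and *Ccr3* alike, mouse 13 had *Retnlg* without *Ccr3*, and the part of the eosinophil markers in the *Retnlg* difference was not tested. *Ccr3* differed by -10.99 between subsets (adjusted p = 7.69e-05).

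The receptors did not go together. *Cxcr2*, a receptor of CXC chemokines, was 0 in 9 Ly6Chi libraries and 48.4 in that of mouse 20. In the Ly6Clo subset it was 356, 313, 1448, 108 and 372 in vehicle mice, and 0, 0, 635, 168 and 305 in Ac-6-FP mice. All vehicle Ly6Clo libraries exceeded all Ly6Chi libraries, while mice 16 and 17 were at 0 in both subsets. The log2 difference was -6.19 (SE 1.16, adjusted p = 0.00601), or -8.52 and -3.88 with a pseudocount of 0.1 and 10, and Ly6Clo was higher in 8 of 10 mice.

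*Csf3r*, the receptor of the growth factor G-CSF, was instead found in all Ly6Chi libraries. It was 606, 88.8, 208, 411 and 446 there in vehicle mice, and 417, 438, 398, 360.1 and 558 in Ac-6-FP mice. In Ly6Clo MoMac it was 205, 73.1, 0, 0 and 149 in vehicle mice, and 203, 503, 69.3, 449 and 401 in Ac-6-FP mice. Ly6Chi was higher in 8 of 10 mice with overlapping ranges, a log2 difference of 2.33 (SE 0.92) that did not pass the test (adjusted p = 0.213, or 0.0396 with detected genes as covariate).

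*Ly6g*, the gene of the antigen that the sort excluded, was near 0 in most libraries. It was 16.2 in Ly6Chi MoMac of mouse 16 and at most 2.24 in the other 9. Ly6Clo MoMac had 0.92, 0, 2.09, 192 and 0 in vehicle mice, and 1.89, 0, 0, 84.8 and 92.8 in Ac-6-FP mice. Only mice 14, 19 and 20 thus stood out in Ly6Clo MoMac. These 3 were among the 6 mice with high *Camp*, *Ngp* and *Ltf*, and the other 3 of those 6, mice 12, 17 and 18, had no *Ly6g* read in Ly6Clo MoMac. No fold change is given, since the medians of both subsets were at or under 3 reads.

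**Figure D3:**
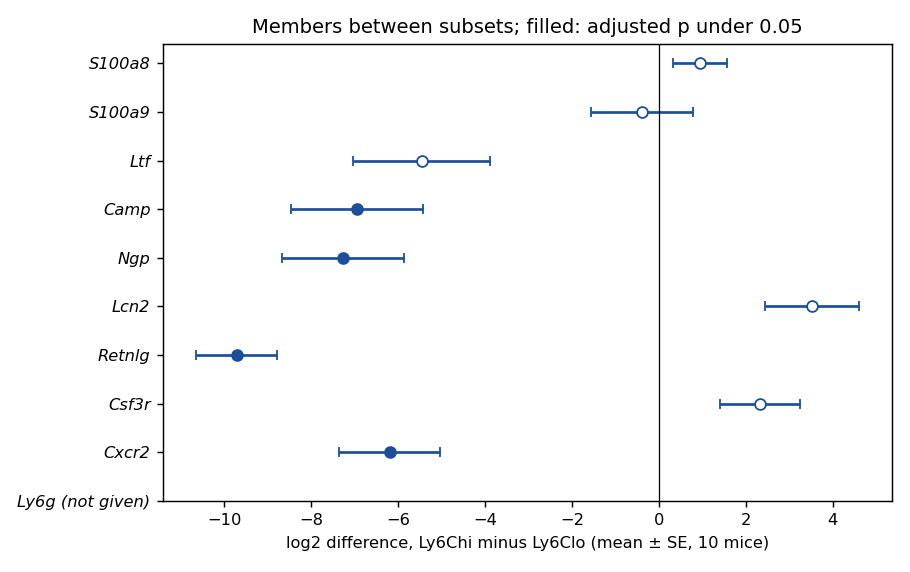
Mean log2 difference of each member, Ly6Chi minus Ly6Clo, with its standard error over 10 mice; filled points passed an adjusted p of 0.05, open points did not, and no value is drawn for *Ly6g*. Filled points (*Camp*, *Ngp*, *Retnlg* and *Cxcr2*) all lie to the left, between -9.72 and -6.19.

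Other neutrophil genes went in both directions. Of 30 listed, 25 were tested, 7 were higher in Ly6Chi and 4 in Ly6Clo MoMac, and 14 did not pass (median log2 difference -1.18). The 5 with the largest differences among those that passed were *Mmp9* (-6.89, adjusted p = 0.00212) and *Hdc* (-6.06, 0.000703), higher in Ly6Clo, and *Mmp8* (4.85, 0.00317), *Chil3* (3.48, 5.21e-07) and *Cd177* (3.17, 0.00226), higher in Ly6Chi. *Mmp8* encodes a collagenase, *Mmp9* a gelatinase and *Cd177* a surface glycoprotein. *Chil3* was also on the Ly6Chi monocyte list. The protease *Mmp8* ranged from 4795 to 11430 in Ly6Chi MoMac (median 7052) and from 0 to 1171 in Ly6Clo MoMac (median 477). *Mmp9* was 0 in 9 of 10 Ly6Chi libraries and reached 2158.5 in Ly6Clo MoMac.

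Azurophil granule genes were found on the Ly6Chi side. Of 7 listed 6 were tested, 4 were higher in Ly6Chi MoMac and 2 did not pass (median 5.30), while edgeR called 3. *Elane*, neutrophil elastase, was 475 to 5132 in Ly6Chi MoMac (median 1443) and 0 to 176 in Ly6Clo MoMac, a log2 difference of 8.82 (SE 0.76, adjusted p = 1.14e-05). The myeloperoxidase gene *Mpo* differed by 6.51 (adjusted p = 0.0028), and the proteases *Prtn3* and *Ctsg* by 6.17 (0.00187) and 4.43 (0.0233). *Elane* was thus present in all 10 Ly6Chi libraries, where *Camp* and *Ngp* were found in 1 of 10.

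Among ligands and partner receptors of the members 9 of 14 were tested. The chemokine *Cxcl2*, a CXCR2 ligand, was higher in Ly6Clo MoMac by -1.69 (adjusted p = 0.0104), as was the scavenger receptor *Cd36* by -5.30 (0.000546). *Emb* and *Cd14* were higher in Ly6Chi MoMac by 1.84 (9.33e-06) and 0.75 (0.0368), and 5 did not pass. By edgeR 3 of the 9 passed. *Csf3*, which encodes G-CSF, and *Cxcl5* were at 0 in all 20 libraries. Of 7 granulocyte transcription factors tested 0 passed by limma, 1 had an unadjusted p under 0.05 and edgeR called 0. The factor *Cebpe*, needed for specific granules, was 0 to 674 in Ly6Chi MoMac and 44.5 to 1055 in Ly6Clo MoMac (-2.53, adjusted p = 0.0689).

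Of 8 other *Ly6* genes tested 3 were higher in Ly6Chi MoMac, among them *Ly6c2* by 3.46 (SE 0.18, adjusted p = 1.43e-07) and *Ly6c1* by 3.19 (0.0013), the genes of the antigen used to divide the subsets. *Ly6e* was the third, by 0.60 (0.000534). *Ly6d* and *Ly6i* were higher in Ly6Clo MoMac (-4.12 and -2.02, adjusted p = 0.0385 and 0.0109), and 3 did not pass. By edgeR 4 of the 8 passed.

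The comparison of Ac-6-FP with vehicle asks whether MAIT cell inactivation went with a change of these genes in either subset. In Ly6Chi MoMac 0 of 10 members passed by limma, beside 0.0754% of the genes tested (13), 1 member had an unadjusted p under 0.05 (*Ly6g*, with too few reads for a fold), and edgeR called 0. *S100a8* was 4326 ± 1149 normalized counts with vehicle and 3639 ± 1079 with Ac-6-FP (SD, n = 5 each), a log2 difference, Ac-6-FP minus vehicle, of -0.26 (SE 0.23, limma adjusted p = 0.687). For *S100a9* it was -0.42 (SE 0.57), for *Csf3r* 0.56 (SE 0.48), for *Lcn2* 0.05 (SE 0.29) and for *Retnlg* 0.55 (SE 1.95), with overlapping groups in each, where all genes tested had a median of 0.35. No fold is given for the other 5, which were at or under 3 reads in the median of both groups.

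In Ly6Clo MoMac the specific granule genes had higher means with Ac-6-FP, without passing the test. *Ltf*, *Camp* and *Ngp* all exceeded 100 normalized counts in 4 of 5 Ac-6-FP mice (17 to 20) and in 2 of 5 vehicle mice (12 and 14), a count that was not itself tested and whose limit of 100 was chosen after the values were seen. Above 3 reads the count was 4 of 5 with Ac-6-FP for each of *Ltf*, *Camp*, *Ngp* and *Lcn2*, against 2 of 5 with vehicle for *Ltf* and 3 of 5 for the other 3, and the vehicle libraries at 0 include that of mouse 13. By limma 0 of 10 members passed, beside 0.0522% of the genes tested (9), 0 had an unadjusted p under 0.05, and edgeR called 0. *Ltf* was 245 ± 431 with vehicle and 2077 ± 1889 with Ac-6-FP (SD, n = 5 each), a log2 difference of 5.15 (SE 2.94, adjusted p = 0.564). *Camp* was 1128 ± 1702 and 2583 ± 2111 (3.70, SE 3.19, adjusted p = 0.613), and *Ngp* 756 ± 994 and 2223 ± 1708 (3.0 in log2, SE 2.98, adjusted p = 0.631). Each standard deviation is of the order of the mean, and the groups overlapped in all 3 genes. With libraries at 0, the sizes depended on the method. EdgeR with TMM gave 3.01 for *Ltf*, 1.10 for *Camp* and 1.47 for *Ngp*. By limma they were 6.48, 4.38 and 3.11 with a pseudocount of 0.1, and 3.815, 2.95 and 2.57 with 10. With 1 mouse left out the difference ranged from 4.26 (without mouse 11, 13 or 15) to 7.32 (without mouse 16) for *Ltf*, from 2.34 (without mouse 11 or 13) to 5.99 (without mouse 16) for *Camp* and from 1.5 (without mouse 13) to 5.25 (without mouse 16) for *Ngp*.

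The S100 genes were likewise higher in the mean with Ac-6-FP in Ly6Clo MoMac. *S100a8* was 2636 ± 3205 with vehicle and 5649 ± 4363 with Ac-6-FP (SD, n = 5 each), a log2 difference of 1.84 (SE 1.18, adjusted p = 0.587). *S100a9* was 1019 ± 1274 and 2125 ± 1708 (2.96, SE 2.00, adjusted p = 0.6), or 1.08 in log2 without the Ly6Clo library of mouse 13. *Csf3r* had the smallest adjusted p of the members, 0.534, at 85.5 ± 91.0 and 325 ± 182 (3.82, SE 1.72). Without that library the *Csf3r* difference was 2.77. With edgeR and TMM the differences were 1.02 for *S100a8*, 0.975 for *S100a9* and 1.885 for *Csf3r*. With genes detected as a covariate they were 2.29, 1.57 and 1.46.

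The remaining values in Ly6Clo MoMac went in either direction. *Lcn2* was 64.6 ± 75.2 with vehicle and 419.7 ± 346 with Ac-6-FP (SD, n = 5 each), a log2 difference of 3.13 (SE 2.30) that ranged from 2.15 (without mouse 13 or 15) to 4.89 (without mouse 16). *Cxcr2* had a lower mean with Ac-6-FP, 519.7 ± 529.8 against 222 ± 264 (-3.53, SE 2.00), with a range from -4.61 (without mouse 18) to -2.28 (without mouse 16 or 17). *Retnlg* was 34529 ± 18396 with vehicle and 47250.0 ± 42233 with Ac-6-FP (0.22 in log2, SE 0.70), a direction that turned without mouse 15 or 20. With edgeR and TMM *Lcn2* was 2.60, *Cxcr2* -1.27 and *Retnlg* 0.40. The median log2 difference by limma was 2.98 over the 10 members and 0.91 over all genes tested. The median of all genes was thus shifted upward in this comparison, and the members' values stand against that shift. Without the library of mouse 13 the 9 members with a fold ranged from -3.03 (*Cxcr2*) to 4.26 (*Ltf*).

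Markers of other cells varied in the same libraries. The summed eosinophil list in Ly6Clo MoMac was 0 to 13359 with vehicle and 1730.4 to 20113 with Ac-6-FP, and the basophil and mast cell list was 3864 to 41801 and 2387 to 12930. The NK and T cell list was 39540.4 to 67257 and 43036 to 86329.8. The erythroid list was 169.2 to 28134 and 175.6 to 55447. Their part in the values of the members was not tested. Of 25 other neutrophil genes tested 0 passed by limma in Ly6Clo MoMac (2 at an unadjusted p under 0.05, edgeR 0), and of 6 azurophil genes 0 (1 unadjusted, edgeR 0).

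**Figure D4:**
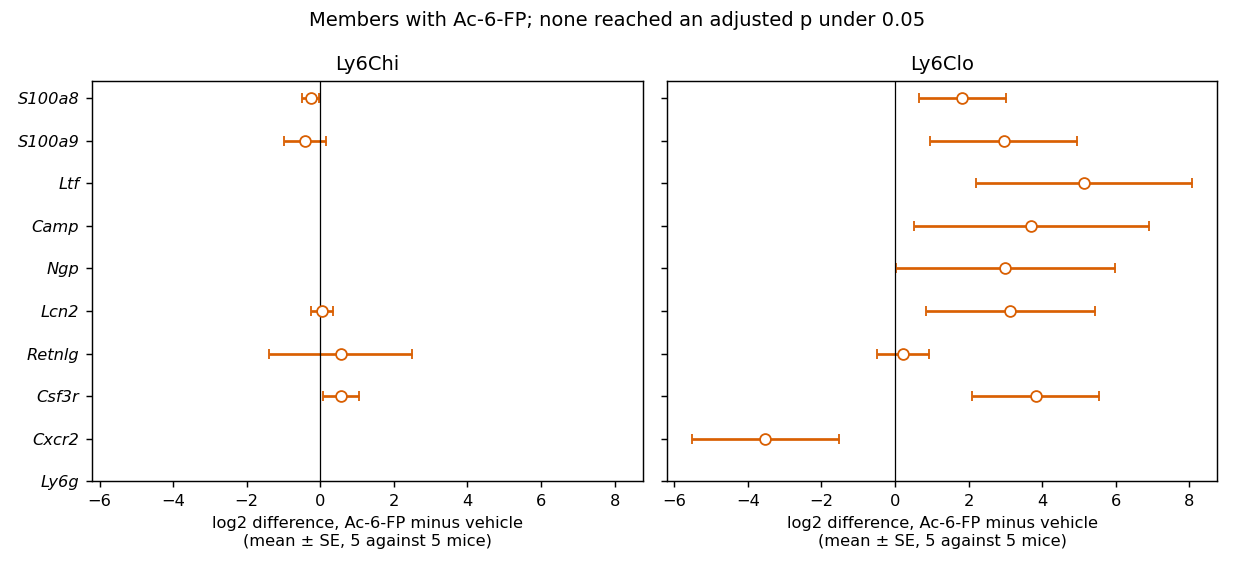
Mean log2 difference of the members, Ac-6-FP minus vehicle, with its standard error, 5 against 5 mice, in Ly6Chi (left) and Ly6Clo MoMac (right); members at or under 3 reads in the median of both groups have no point. Points in Ly6Clo MoMac reach 5.15 (*Ltf*) with standard errors of up to 3.19, and none passed the test.

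Whether the change with Ac-6-FP differed between subsets was tested on the within-mouse differences, Ly6Chi minus Ly6Clo, of 5 against 5 mice. By limma 0 of 10 members and 0% of the genes tested passed, 1 member (*Cxcr2*, 4.65, SE 1.98) and 840 genes had an unadjusted p under 0.05, and edgeR called 0. *S100a8* had a difference of -2.09 (SE 1.15) and *Csf3r* of -3.26 (SE 1.66), each with an adjusted p of 0.83. For *Camp* and *Ngp* limma gave -3.0 (SE 3.04) and -2.55 (SE 2.85), while edgeR with TMM gave 1.49 and 0.58, so that not even the direction can be stated. Within vehicle mice alone 1 member, *Cxcr2*, passed between subsets (0.458% of genes tested), and within Ac-6-FP mice alone 1, *Retnlg* (3.16%). *Retnlg* differed by -9.88 in vehicle mice (adjusted p = 0.121) and by -9.55 in Ac-6-FP mice (0.0334), *Camp* by -5.45 (0.64) and -8.46 (0.126), and *Ngp* by -5.99 (0.64) and -8.55 (0.121).

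**Figure D5:**
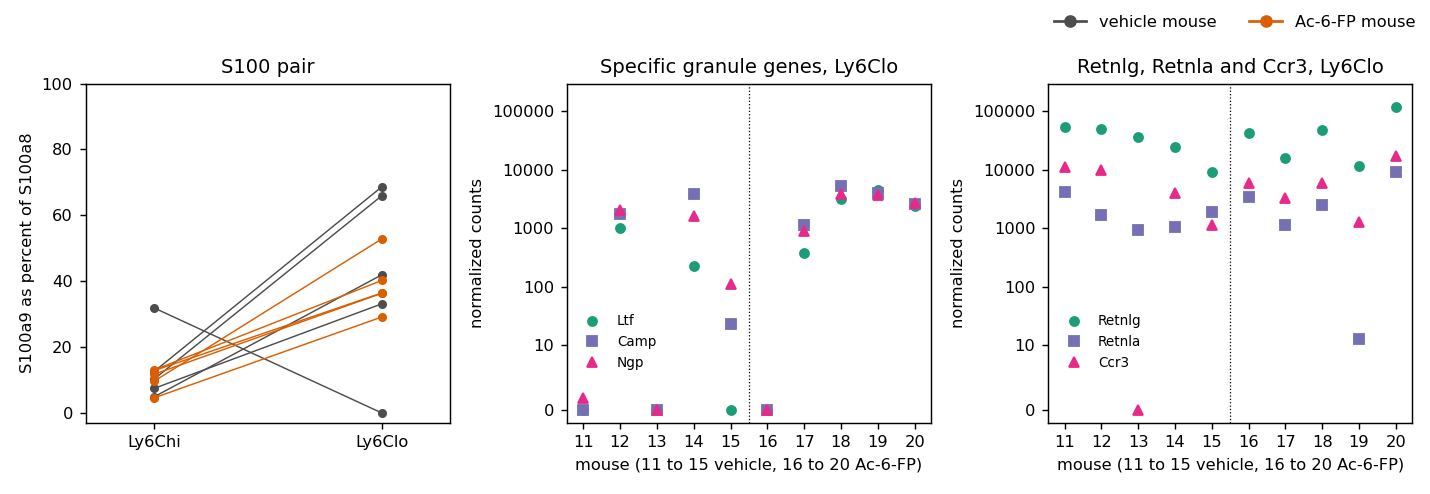
Left, *S100a9* as a percentage of *S100a8* in both libraries of each mouse; middle and right, normalized counts in the 10 Ly6Clo libraries by mouse, with a dotted line between vehicle and Ac-6-FP mice and an axis that is linear below 10 and logarithmic above. *Ltf*, *Camp* and *Ngp* are all above 100 in mice 12, 14 and 17 to 20, whereas *Retnlg* is at 9064 or more in all 10.

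The genes most like the members were searched over all tested genes with a symbol, by the Pearson correlation of log2 values with the mean z score of the 10 members over 20 libraries. *Chil1* came first (r = 0.79), ahead of *Olfm4* (0.76), *Reck* (0.76), *Homer3* (0.76), *1110002L01Rik* (0.75), *Pex7* (0.75), *Lad1* (0.74), *Pitpnc1* (0.73), *Lmo4* (0.73) and *Arhgap22* (0.72). *Olfm4*, olfactomedin 4 of specific granules, was 0 in all Ly6Chi libraries and at most 38.5 in Ly6Clo MoMac. Without the Ly6Clo library of mouse 13 *Chil1* (0.81) and *Olfm4* (0.79) were still first, and *Ccm2* took the place of *Lmo4*. Within the 10 Ly6Clo libraries, a search added after the values were seen, the 5 genes closest to *Retnlg* were *H3f3b* (r = 0.92), *Fam101b* (0.92), *Tmem154* (0.90), *Ccl6* (0.89) and *Alox15* (0.89). *Alox15*, a lipoxygenase, was 1014 to 20089 in Ly6Clo and 0 to 264 in Ly6Chi MoMac. With 10 or 20 libraries and 17248 genes, high values are to be met by the number of genes alone, and these correlations are descriptions.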

How the data were processed

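RNA of sorted Ly6Chi and Ly6Clo MoMac was sequenced by the authors with a low-input kit (NextSeq, 75-base reads), aligned with STAR 2.4.0 to mm10 and counted on constitutive regions of FAST DB genes. The deposited values are signal, counts that the authors normalized with DESeq2 by 1 size factor per library. Strand use in counting is not given in the sources used here. Libraries were matched by the mouse number and subset in the sample titles, and both libraries of a number were paired as 1 mouse. The correlation of residuals within a mouse had a median of 0.0338 (0.00334 to 0.25), against -0.00319 between mice, so the pairing comes from the labels and not from the values.

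Tables were handled in Python 3.11.15 with pandas 2.3.3, numpy 2.4.6 and scipy 1.17.1, and plots were drawn with matplotlib 3.10.9. In each library they were whole multiples of 1 step for 100.00% of values (tolerance 0.006), which gave whole reads. No 2 libraries were identical (0 pairs). Values were tested as log2(value + 1) with limma 3.58.1 in R 4.3.3 over the 17248 genes with a mean of at least 10 in at least 1 group. The 3 comparisons were Ly6Chi against Ly6Clo on within-mouse differences, Ac-6-FP against vehicle within a subset, and the change with Ac-6-FP between subsets. Adjusted p-values under 0.05 (Benjamini-Hochberg over all tested genes) were counted. The fit was also run on simulated counts. These held no genes made absent in some libraries and abundant in others, so that run does not bear on such members. The replicate is the mouse, with 1 library per subset.

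The members and all gene lists were chosen with earlier results of these data known. All members are named, from each other list the genes that passed (the 5 largest where over 10 did), defining markers beside the results they move with, and the 10 genes most like the members. From the marker lists 1 gene that passed is not reported here. Any other gene was chosen after its values were seen. As alternatives, the pseudocount was set to 0.1 or 10 and the filter to none or a mean of 100. Others were quantile normalization, genes detected as a covariate, no pairing, each mouse left out, each treatment alone, and edgeR 4.0.16, by its quasi-likelihood test, run with the whole reads, also without mouse 15, whose Ly6Chi step lies close to 1 (added after seeing the data). Promoters came from RefSeq.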

Additional observations from a re-analysis of the deposited data

Results flagged for a closer look

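In groups of 5, a sample whose gap to the nearest other exceeds 0.71 of the range of log2 values was singled out. This held for 11 of 36 combinations of member and group, and in 5 of the 11 the other samples of the group were all at 0. The limit stands for about 1 in 20 by chance in independent values without such ties. The members share libraries and zeros, so the 11 cannot be set against that rate. In Ly6Chi MoMac of Ac-6-FP mice, mouse 20 stood above the 4 others, all at 0, for *Ltf* (16.39), *Camp* (10.43), *Ngp* (3.73) and *Cxcr2* (48.43), and mouse 16 for *Ly6g* (16.24, others 0.82 to 2.24). There mouse 18 was below the others for *Retnlg* (0.00, others 54.1 to 160.4). In Ly6Chi vehicle mice, mouse 11 stood out for *Ltf* (5.31, others 0).

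In Ly6Clo MoMac of Ac-6-FP mice, mouse 16 was at 0.00 for *Camp* (others 1143 to 5257), *Ngp* (others 903 to 3804) and *Lcn2* (others 162 to 876). Without mouse 16 the log2 difference between Ac-6-FP and vehicle in Ly6Clo MoMac was 5.99 for *Camp* and 5.25 for *Ngp*, and without mouse 13 it was 2.34 and 1.5, against 3.70 and 3.0 with all mice. None of these passed the threshold. In Ly6Clo vehicle mice, mouse 14 was above the others for *Ly6g* (192.04, others 0 to 2.09).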

How the results depend on the processing

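The calls of *Camp*, *Ngp*, *Retnlg* and *Cxcr2* between subsets held with each mouse left out, with either edgeR normalization, under both pseudocounts, both filters, quantile normalization, the covariate and no replicate block (*Camp* then 0.0124), and within 1 treatment alone, where 5 mice remain, those of *Camp* and *Ngp* were lost in both, that of *Retnlg* in vehicle mice (0.121) and that of *Cxcr2* in Ac-6-FP mice (0.359). Ignoring the pairing by mouse, with no replicate block, changed 1 member's call, that of *Ltf* (0.0434), and gave 987 genes between subsets and 3 for the change between subsets.

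Against 896 genes between subsets, 1702 passed with genes detected as a covariate, 584 with edgeR and TMM, 467 with edgeR without mouse 15, 79 in vehicle mice only and 545 in Ac-6-FP mice only, and 673 to 1161 with 1 mouse left out. The covariate turned the split of higher against lower in Ly6Chi from 303 and 593 into 979 and 723. Against 13 genes with Ac-6-FP in Ly6Chi MoMac, 5 passed with no filter, 4 with a filter at 100, 0 with quantile normalization, the covariate or edgeR in its 3 forms, and 0 to 133 with 1 mouse left out (133 without mouse 11). Against 9 in Ly6Clo MoMac, 2 passed with a pseudocount of 10, with no filter, with a filter at 100, with the covariate or without the library of mouse 13, 0 with quantile normalization or edgeR, and 0 to 103 with 1 mouse left out (103 without mouse 11). For the change between subsets, 2 passed with a filter at 100 and 1 with quantile normalization against 0, and 0 with each mouse left out. In all these treatment settings 0 members passed.

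Directions turned only for values far from the threshold. Between subsets, *S100a9* was 0.26 with the covariate, -1.62 to 0.013 with 1 mouse left out (0.013 without mouse 14) and 1.29 in vehicle mice, and *S100a8* -0.10 in Ac-6-FP mice. With Ac-6-FP in Ly6Chi MoMac, *Lcn2* was -0.064 with quantile normalization, -0.40 with the covariate, -0.004 with edgeR without mouse 15, and -0.14 to 0.20 with 1 mouse left out (-0.03 without mouse 14, 15 or 17). *Retnlg* there was -1.03 with the covariate, -0.27, -0.32 and -0.55 with edgeR (TMM, deposited size factors, without mouse 15) and -0.69 to 1.93 with 1 mouse left out (-0.69 without mouse 12), *Csf3r* -0.12 with the covariate, and *S100a9* -0.76 to 0.028 with 1 mouse left out (0.028 without mouse 13). In Ly6Clo MoMac *Retnlg* was -0.20 without mouse 15 and -0.22 without mouse 20, up to 0.61 with 1 mouse left out. For the change between subsets, edgeR gave *Camp* 1.49, 1.34 and 1.90 and *Ngp* 0.58, 0.43 and 0.95 in the same order, and *Retnlg* was -1.10, -0.40 and -0.13 without mouse 12, 17 and 19, up to 1.83 with 1 mouse left out. The causes were not tested. With 5 mice a group, a member at 0 in some libraries and abundant in others has a standard error of up to 3.19 in log2, which limits what the treatment comparisons can show.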
